A study of Mus musculus with 6 samples.

Results

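Immunoglobulin and plasma cell transcripts were measured in mouse liver through 9 genes chosen by name, among the 58601 rows of the expression table. They were the heavy chain constant regions of IgM (Ighm), IgA (Igha) and IgG2b (Ighg2b), the light chain constant regions of the kappa type (Igkc) and of a lambda type (Iglc2), the joining chain (Jchain), the signalling chains of the B cell receptor (Cd79a and Cd79b) and Mzb1. All 9 were found in the table. The livers came from mice labelled Mdr2 knockout, written Mdr2-HKO in the protocol, which were 8 weeks old when treatment began and were given lycorine (3 libraries) or vehicle (3 libraries) for 2 weeks. Every animal carried the Mdr2 deletion, lycorine was the agent that differed between the groups. The labels used here do not explain HKO, name no strain, sex or dose, and describe no animals with intact Mdr2. Mdr2, or Abcb4, exports phosphatidylcholine into bile, and mice without it develop cholestatic liver injury. Lycorine is an alkaloid of Amaryllidaceae plants, and the study asked how it acts in this cholestatic liver.

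A B cell carries membrane immunoglobulin together with Cd79a and Cd79b, which pass the antigen signal into the cell. After activation it can switch its heavy chain from IgM to IgG or IgA and become a plasma cell, which secretes antibody and makes immunoglobulin RNA in very large amounts. Jchain links the units of polymeric IgA and IgM, and Mzb1 is a chaperone of the endoplasmic reticulum that helps to fold and assemble immunoglobulin. In the mouse, the receptor Pigr carries polymeric IgA into bile.

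Values were in TPM, a relative abundance per transcript length, so levels can be compared between genes and each library sums to the same total. Read depth is unknown and no counting interval can be given. A bulk value cannot tell fewer plasma cells or B cells from less immunoglobulin RNA in each cell. The labels do not say that each library is a separate animal, so the p-values measure only the spread between these libraries.

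Constant region genes resemble each other, and their sequences bear on how far the values can be separated. The first 120 bases of the lambda constant regions, all on the minus strand of chromosome 16 of GRCm38, are shown because Iglc2 is a member and its copies can take reads from it. They cover chr16:19198733-19198852 for Iglc2, chr16:19065562-19065681 for Iglc3 and chr16:19061952-19062071 for Iglc1, from GENCODE M21 transcripts. Capitals mark bases that differ from Iglc2.
Iglc2: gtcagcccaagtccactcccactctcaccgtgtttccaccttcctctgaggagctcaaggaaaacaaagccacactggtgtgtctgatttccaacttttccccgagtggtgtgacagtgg
Iglc3: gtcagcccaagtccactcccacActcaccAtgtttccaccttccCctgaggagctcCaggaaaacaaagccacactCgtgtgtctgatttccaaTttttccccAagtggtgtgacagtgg
Iglc1: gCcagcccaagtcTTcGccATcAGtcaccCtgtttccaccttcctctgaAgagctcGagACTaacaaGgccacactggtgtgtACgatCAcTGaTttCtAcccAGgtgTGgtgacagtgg
Iglc3 differed from Iglc2 at 7 of these 120 bases and Iglc1 at 28, and over the aligned transcripts Iglc2 was 95.35% identical to Iglc3 and 69.73% identical to Iglc1. Of the 50-base windows of the Iglc2 transcripts, 7.65% occurred unchanged in Iglc3.

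The IgG heavy chains are shown for the same reason, with the first 120 bases of the first constant exon of Ighg2b (chr12:113307814-113307933), Ighg1 (chr12:113330404-113330523) and Ighg2c (chr12:113288813-113288932), minus strand, GRCm38. Capitals mark bases that differ from Ighg2b.
Ighg2b: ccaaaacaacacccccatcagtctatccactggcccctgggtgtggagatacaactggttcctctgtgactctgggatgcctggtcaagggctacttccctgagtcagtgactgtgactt
Ighg1: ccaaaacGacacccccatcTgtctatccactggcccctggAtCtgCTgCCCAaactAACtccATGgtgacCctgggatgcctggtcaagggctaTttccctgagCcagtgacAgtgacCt
Ighg2c: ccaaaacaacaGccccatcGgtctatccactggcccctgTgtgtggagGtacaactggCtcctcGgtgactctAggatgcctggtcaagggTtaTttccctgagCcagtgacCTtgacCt
Of the 50-base windows of Ighg2b, 4.15% also occurred in another gene, most often Ighg2c, against 0 windows for Igha, Ighm, Igkc, Jchain and Cd79b. How reads that match several genes were assigned is not given in the sources used here, so the IgG subclasses and Iglc2 are uncertain where reads fell in such windows. Mzb1 lies inside an annotated overlapping gene of the same strand, named SPATA24 in GENCODE M21, and 53.5% of its windows occurred there, so reads of Mzb1 could be counted for either gene. Of the Cd79a windows, 8.31% occurred in the processed pseudogene Gm32220, which was at 0 TPM in all 6 libraries.

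No member differed between lycorine and vehicle beyond the spread between libraries, and the groups overlapped in all 9. Of the 9 genes 7 had a mean of at least 1 TPM and entered the test across all rows, and 0 of these 7 passed a limma adjusted p of 0.05. That count stands against 0% of the 13854 rows tested, so the test called nothing anywhere. At an unadjusted limma p under 0.05 there were 0 of the 7, against 3.44% of all rows, or 476, of which 386 were higher in lycorine. Median-of-ratios scaling left 316 such rows, 125 of them higher, quantile normalization 295 with 137 higher, and rescaling to protein-coding nuclear and immunoglobulin genes 247 with 144 higher. The lycorine and vehicle libraries did not overlap in 10.6% of all rows tested, 1330 higher in lycorine and 140 lower, and in 0 of the 9 members. Of the 7, 4 had a log2 fold change above 0 and 3 below, with a median of 0.00 on the log2(TPM + 1) scale, beside a median of 0.22 and 69.87% of rows above 0 over all rows tested. Median-of-ratios scaling moved the median of all rows to -0.03, and the estimates of Ighm, Igha and Jchain then fell on the other side of 0, as that of Cd79b did after rescaling.

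Igkc, the constant region that most mouse light chains carry, was the most abundant member. Its gene is a single exon at chr6:70726435-70726966, plus strand. It stood at 422.56, 156.47 and 74.10 TPM in lycorine 1, 2 and 3, and at 522.32, 120.54 and 106.04 TPM in vehicle 1, 2 and 3. Lycorine 1 and vehicle 1 were high, the other 4 libraries were low, and the groups overlapped over almost their whole range. Igkc averaged 217.7 ± 182.1 TPM in lycorine and 249.6 ± 236.3 TPM in vehicle (SD, n = 3 each), which gave a log2 fold change of -0.15 (SE 0.79, 95% interval -1.999 to 1.70, limma adjusted p = 0.967). The highest library was 5.70 times the lowest within lycorine and 4.93 times the lowest within vehicle, while the mean in lycorine was 0.872 times that in vehicle.

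Igha, at chr12:113254830-113260236 on the minus strand, was the most abundant heavy chain among the members. It was at 80.90, 34.20 and 9.86 TPM in the lycorine libraries, against 50.21, 18.55 and 16.12 TPM in the vehicle libraries. Lycorine held both the highest and the lowest library. The means were 41.7 ± 36.1 TPM in lycorine and 28.3 ± 19.0 TPM in vehicle (SD, n = 3 each), with a log2 fold change of 0.29 (SE 0.76, 95% interval -1.49 to 2.06, limma adjusted p = 0.933). Ighm, at chr12:113418558-113422730, the heavy chain of naive B cells and of IgM plasma cells, was at 12.31, 4.83 and 2.27 TPM in lycorine and at 13.30, 3.24 and 3.15 TPM in vehicle. Each group held 1 high library, lycorine 1 or vehicle 1, and 2 low ones. On the log2 scale lycorine minus vehicle was 0.00 (SE 0.66, 95% interval -1.53 to 1.54, limma adjusted p = 0.999).

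Ighg2b, at chr12:113302965-113307933, had the largest estimate of the 7, though still within the spread. It was at 14.76, 6.21 and 3.02 TPM in lycorine and at 23.94, 6.48 and 9.72 TPM in vehicle. The highest value was in vehicle 1 and the lowest in lycorine 3, and the ranges overlapped. The means were 8.00 ± 6.07 TPM in lycorine and 13.4 ± 9.29 TPM in vehicle (SD, n = 3 each), with a log2 fold change of -0.71 (SE 0.62, 95% interval -2.15 to 0.73, limma adjusted p = 0.832). Ighg2b was the member whose fold change was below 0 under each of 18 alternatives, from -1.23 without lycorine 1 to -0.22 without vehicle 1, and it passed in 0 of them. Some of these alternatives, such as the changes of filter and the replicate block, cannot change the estimate.

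Iglc2, at chr16:19198396-19200351, was listed at 1.17, 3.49 and 0.56 TPM in lycorine and at 4.18, 2.21 and 0 TPM in vehicle. Among the lycorine libraries it was highest in lycorine 2, where Igkc was highest in lycorine 1, and its value of 0 in vehicle 3 stood beside 1.81 TPM for its near copy Iglc3 in that library. The estimate of lycorine minus vehicle was -0.04 on the log2 scale (SE 0.70, limma adjusted p = 0.988).

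Jchain, at chr5:88519809-88527891, was at 10.72, 5.14 and 1.72 TPM in lycorine and at 6.22, 2.53 and 5.94 TPM in vehicle. Lycorine held the highest and the lowest library again, and vehicle 3 was nearly as high as vehicle 1, which was not so for Igha. The means were 5.86 ± 4.54 TPM in lycorine and 4.90 ± 2.05 TPM in vehicle (SD, n = 3 each), with a log2 fold change of 0.05 (SE 0.57, 95% interval -1.28 to 1.38, limma adjusted p = 0.986). Igha exceeded Jchain 7.55-, 6.65- and 5.73-fold in lycorine 1, 2 and 3, and 8.07-, 7.33- and 2.71-fold in vehicle 1, 2 and 3, so vehicle 3 had the lowest ratio of the 6.

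The B cell receptor chains and Mzb1 were close to the floor of the table. Cd79b, at chr11:106311341-106314762, was at 1.53, 1.16 and 0.55 TPM in lycorine and at 1.61, 0.82 and 0.54 TPM in vehicle. Its mean over the 6 libraries was 1.04 TPM, just inside the minimum of 1 TPM, and lycorine minus vehicle was 0.07 on the log2 scale (SE 0.47, limma adjusted p = 0.974). Mzb1, with a mean of 0.845 TPM and just outside it, was at 1.73, 0.86 and 0.61 TPM in lycorine and at 1.23, 0.24 and 0.40 TPM in vehicle. SPATA24, which overlaps it, was at 0.14, 0 and 0.59 TPM in lycorine and at 0.11, 0.87 and 1.80 TPM in vehicle. Cd79a was at 0.73, 0.46 and 0 TPM in lycorine and at 1.30, 0.91 and 0.44 TPM in vehicle, with a mean of 0.64 TPM. In a fit without the minimum, Cd79a had a log2 fold change of -0.44 (SE 0.31, limma adjusted p = 0.860) and Mzb1 of 0.36 (SE 0.37, limma adjusted p = 0.860). The signs of the receptor pair differed, and neither estimate left the spread between libraries.

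**Figure D1:**
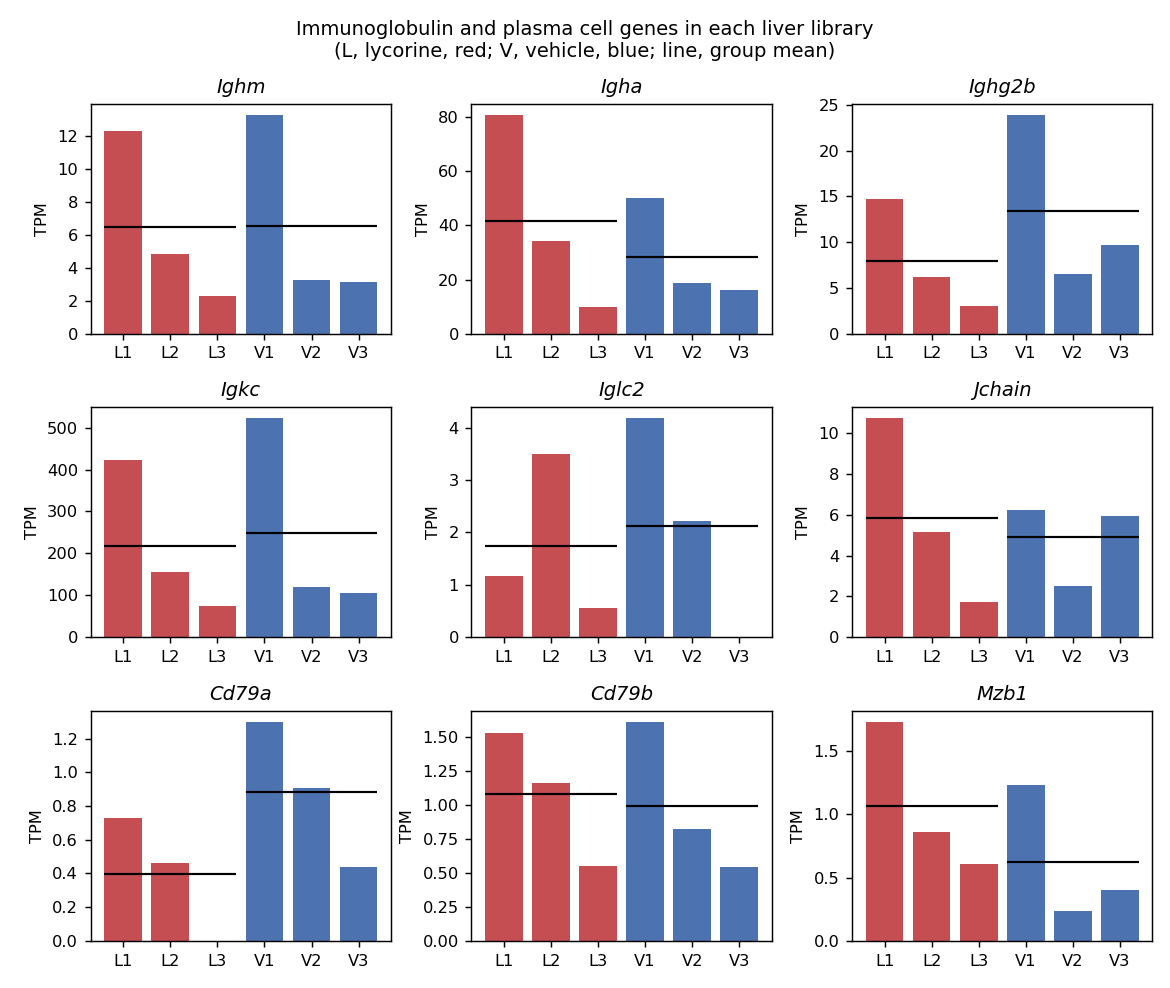
TPM of the 9 genes (1 panel each, linear axis from 0, in TPM) in lycorine libraries L1 to L3 (red) and vehicle libraries V1 to V3 (blue), with each group's mean as a line. Igkc stands at 422.56 TPM in L1 and 522.32 TPM in V1 and at no more than 156.47 TPM in the other libraries, and the groups overlap in every panel.

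By mean TPM the order was Igkc, Igha, Ighg2b, Ighm, Jchain, Iglc2, Cd79b, Mzb1 and Cd79a, with means over the 6 libraries from 233.7 to 0.64 TPM. The first steps held in every library: Igkc exceeded Igha, Igha exceeded Ighg2b and Ighg2b exceeded Ighm in 6 of 6, and Jchain exceeded Iglc2 in 6 of 6. Ighm exceeded Jchain in 4 of 6, Iglc2 exceeded Cd79b in 4, Cd79b exceeded Mzb1 in 4 and Mzb1 exceeded Cd79a in 3. The order of those neighbours thus did not hold in every library, and their differences were not tested. Igkc alone made up 73.98%, 69.17% and 73.56% of the TPM of the 12 constant genes in lycorine 1, 2 and 3, and 77.09%, 72.03% and 64.48% in vehicle 1, 2 and 3.

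**Figure D2:**
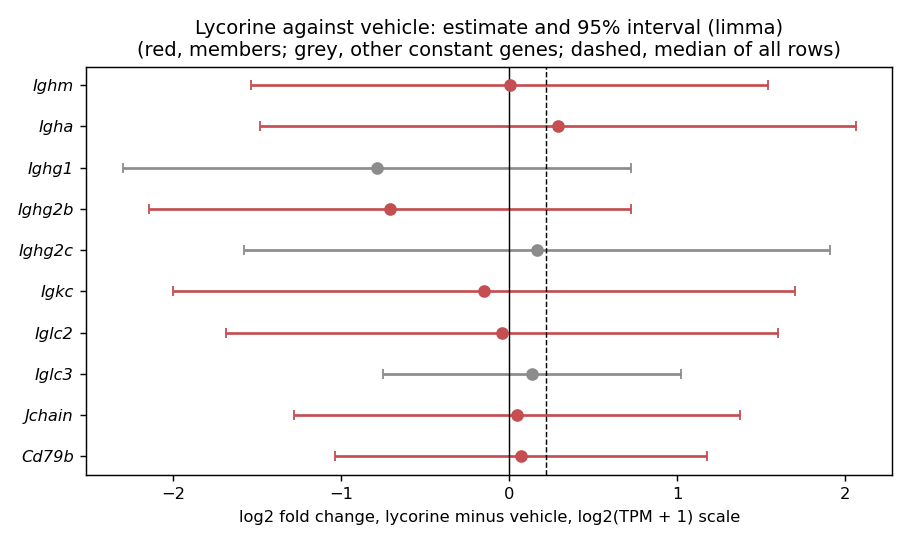
Log2 fold change of lycorine minus vehicle on the log2(TPM + 1) scale (x axis) with its 95% interval from limma, for the 7 tested members (red) and 3 other constant genes (grey); the dashed line is the median of all rows, 0.22. Each interval includes 0, and Ighg1 and Ighg2b lie farthest to the left, at -0.79 and -0.71.

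Besides the 5 constant genes among the members, 3 of the other 7 were tested, and 0 passed in limma. Their log2 fold changes were -0.79 for Ighg1, 0.17 for Ighg2c and 0.14 for Iglc3. Over the 8 tested constant genes, the members included, the median was -0.02. Ighg1, the IgG1 heavy chain, exceeded Igha in vehicle 1 and vehicle 3 and lay below it in the other 4 libraries. It was at 32.06, 14.12 and 7.08 TPM in lycorine and at 53.65, 13.04 and 25.99 TPM in vehicle, with an SE of 0.65 on the log2 scale (limma adjusted p = 0.832). Ighg2c was at 2.86, 1.22 and 0 TPM in lycorine and at 3.25, 0.27 and 0.12 TPM in vehicle, and Ighg3 reached 2.07 TPM in lycorine 2 and at most 0.46 TPM elsewhere. Ighd, the IgD chain of naive B cells, lay between 0.31 and 0.83 TPM in lycorine and between 0.56 and 1.85 TPM in vehicle. Ighe, the IgE chain, lay between 0.04 and 0.14 TPM in lycorine and between 0.07 and 0.48 TPM in vehicle. Iglc1 was at 0.87, 1.59 and 0 TPM in lycorine and at 1.07, 0.38 and 0 TPM in vehicle, and Iglc3 at 2.46, 1.60 and 3.36 TPM in lycorine and at 3.27, 1.45 and 1.81 TPM in vehicle.

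The shares of IgA and of IgG in heavy chain RNA did not overlap between the groups, but neither difference passed a test after adjustment. A share within a library does not move with the overall amount of immunoglobulin RNA, so it was computed for each isotype over the summed TPM of the 8 heavy chain constant genes. IgA made up 56.1%, 54.2% and 43.4% of that sum in lycorine 1, 2 and 3, and 34.2%, 43.4% and 28.5% in vehicle 1, 2 and 3. Each lycorine library lay above each vehicle library, but lycorine 3 at 43.398% and vehicle 2 at 43.382% were nearly equal. The IgA share averaged 51.3% ± 6.87 in lycorine and 35.4% ± 7.52 in vehicle (SD, n = 3 each), a difference of 15.9 percentage points. The 4 IgG genes together made up 34.7%, 37.5% and 45.1% in lycorine and 55.4%, 46.6% and 64.1% in vehicle, and the difference of means was -16.3 points. For both shares the exact permutation p was 0.1, two-sided, which is the smallest that 3 against 3 allow, and 0.2 after Benjamini-Hochberg adjustment over the 4 shares tested. With only the heavy chain genes of a mean of at least 1 TPM in the sum, the IgA difference was 16.3 points, the groups overlapped and the exact permutation p was 0.2. For IgG the difference was then -17.6 points, with an exact permutation p of 0.1, as before. The IgA and IgG shares move against each other by construction, so they are not separate evidence.

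IgM made up 8.54%, 7.66% and 9.99% of the heavy chain sum in lycorine and 9.06%, 7.58% and 5.57% in vehicle, and the groups overlapped (exact permutation p = 0.4). Among the IgG genes, Ighg1 made up 22.2%, 22.4% and 31.2% of the sum in lycorine and 36.6%, 30.5% and 45.9% in vehicle, which overlapped, and Ighg2b 10.2%, 9.85% and 13.3% in lycorine and 16.3%, 15.2% and 17.2% in vehicle, which did not. These shares of single IgG genes were not tested. Igha was 2.52, 2.42 and 1.39 times Ighg1 in lycorine and 0.936, 1.42 and 0.620 times Ighg1 in vehicle. Lambda chains made up 1.05%, 4.09% and 5.02% of light chain constant TPM in lycorine and 1.61%, 3.24% and 1.68% in vehicle (exact permutation p = 0.4), so kappa held most of the light chain RNA in every library.

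**Figure D3:**
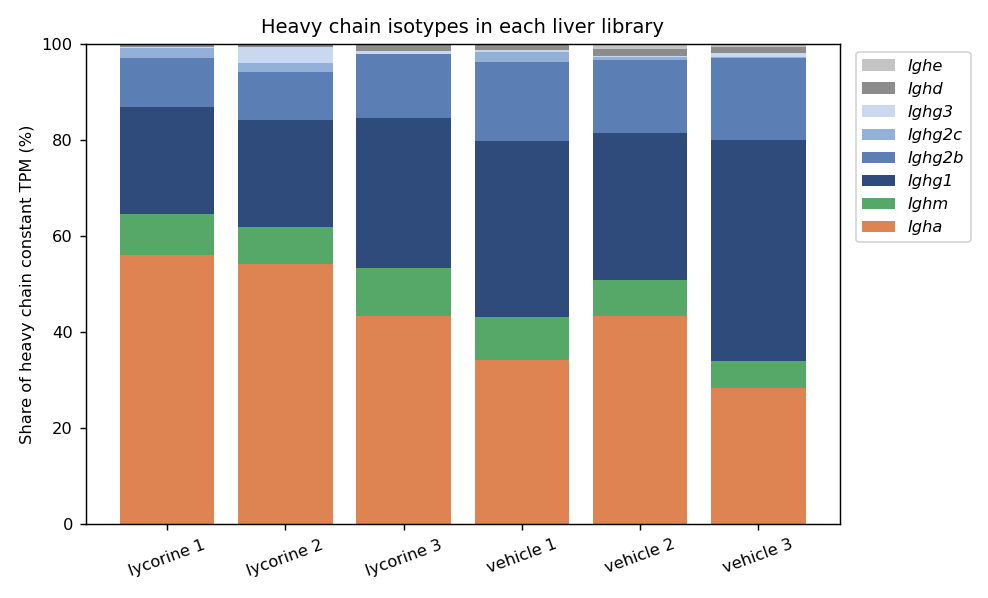
Share of heavy chain constant TPM (y axis, percent, from 0 to 100) taken by each of 8 heavy chain genes in the lycorine libraries (left) and vehicle libraries (right). The IgA part (Igha, orange) is 56.1%, 54.2% and 43.4% in lycorine and 34.2%, 43.4% and 28.5% in vehicle.

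Variable gene rows followed the constant genes only in part. The table holds 218 rows of class IG_V_gene, of which 110 were above 0 in at least 1 library, 1 was above 0 in all 6 and 17 entered the test, with 0 passing in limma and 0 not overlapping. Their TPM summed to 243.69, 59.36 and 3.60 in lycorine 1, 2 and 3, and to 112.28, 59.09 and 15.60 in vehicle 1, 2 and 3. Rows above 0 numbered 92, 40 and 3 in the lycorine libraries and 48, 47 and 8 in the vehicle libraries. Lycorine 3 and vehicle 3 were thus low in both measures, although rows above 0 over the whole table numbered 19764 in lycorine 3 and 19482 in vehicle 3, close to the 19408 of vehicle 2. Summed variable TPM over summed constant TPM was 0.427, 0.262 and 0.0357 in lycorine and 0.166, 0.353 and 0.0949 in vehicle.

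Igkv3-4, a kappa variable gene at chr6:70671788-70672377, was the variable row present in all libraries and the highest by mean. It was at 55.60, 30.00 and 2.43 TPM in lycorine and at 36.96, 13.27 and 5.69 TPM in vehicle. The next by mean were Igkv4-59, Igkv12-44, Igkv10-96 and Igkv6-23, each between 10.63 and 12.69 TPM in lycorine 1, at most 3.96 TPM in any vehicle library and at 0 in both lycorine 3 and vehicle 3. Lycorine 1 was the highest of the 6 libraries in 14 of the 17 tested variable rows. Sequence shared among variable genes was not measured, so how far reads could be assigned between them is unknown.

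The members varied together across libraries. In 6 of the 7 tested members lycorine 1 and vehicle 1 were both above the other 4 libraries, a pattern noticed in these data, which 26.5% of all rows tested also show. Vehicle 1 was the highest vehicle library in 9 of 9 members, lycorine 1 the highest lycorine library in 8 of 9, and lycorine 3 the lowest of all 6 libraries in 6 of 9. As a description over 6 libraries, the Pearson correlation of a member with the mean standardised profile of the other tested members was 0.98 for Igkc, 0.97 for Ighm, 0.96 for Cd79b, 0.95 for Igha, 0.84 for Ighg2b, 0.74 for Jchain and 0.49 for Iglc2. These points share their libraries and the scaling to a fixed total.

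Among 6138 protein-coding genes outside all lists with a mean of at least 5 TPM, the 8 most like the members' profile were Naa20, Sod3, Leprotl1, Lyz2, H2-Aa, Emilin1, H2-DMb2 and Pianp, with Pearson r of 0.997 to 0.988 over the 6 libraries. H2-Aa, an MHC class II chain of antigen-presenting cells, was at 235.35, 112.21 and 24.49 TPM in lycorine and at 280.93, 64.29 and 59.36 TPM in vehicle. Lyz2, the lysozyme of myeloid cells, was at 299.84, 139.25 and 51.98 TPM in lycorine and at 370.00, 81.74 and 72.60 TPM in vehicle. Both have lycorine 1 and vehicle 1 high and lycorine 3 lowest, as Igkc does, which follows from their choice by likeness to the members. Naa20, with the highest r, was at 16.83, 11.86 and 7.55 TPM in lycorine and at 18.47, 9.82 and 9.20 TPM in vehicle.

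Markers of other leukocytes were in part high in the same libraries as the members. The 12 pan-leukocyte markers, such as the adhesion subunit Itgb2, summed to 290.80, 157.89 and 81.13 TPM in lycorine and to 452.16, 119.67 and 140.44 TPM in vehicle, and in 9 of the 12 lycorine 1 and vehicle 1 were both highest. The 14 T cell markers summed to 34.98, 17.96 and 12.39 TPM in lycorine and to 54.88, 15.04 and 30.77 TPM in vehicle, and lycorine 1 and vehicle 1 were both highest in 4 of the 8 tested. Vehicle 3 was close to lycorine 1 in the T cell sum, whereas for the members it was low. Single T cell markers went both ways, so the sum does not stand for each of them. Trbc2 was at 9.42 TPM in lycorine 1 and 2.99 TPM in vehicle 3, and Trac at 2.48 and 1.12 TPM. Cd3d was at 1.34 TPM in lycorine 1 and 5.49 TPM in vehicle 3, and Lat at 1.04 and 4.19 TPM. The part of overall leukocyte content in the immunoglobulin values was not tested. The 12 Kupffer cell markers, of the resident liver macrophages, summed to 413.82, 179.50 and 154.35 TPM in lycorine and to 554.71, 225.20 and 347.54 TPM in vehicle. Of their 10 tested members 10 had a log2 fold change below 0, with a median of -0.88, against -0.22 for the leukocyte list and 0.00 for the 7 immunoglobulin and plasma cell genes. Whether these lists differ from each other was not tested.

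**Figure D4:**
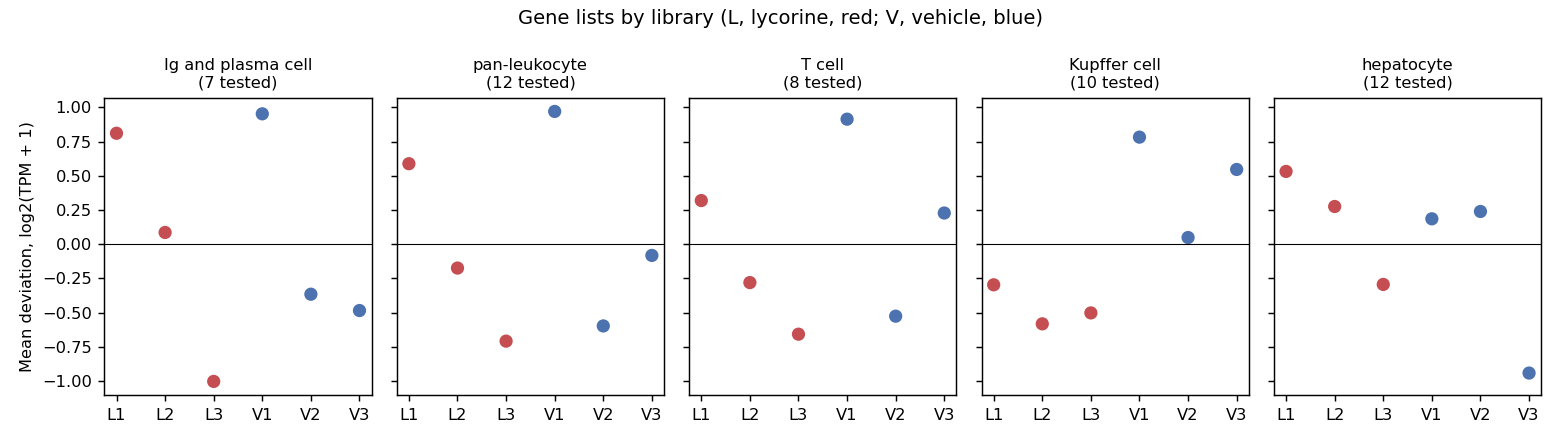
Mean deviation of each list's tested genes from their own means over the 6 libraries (y axis, log2(TPM + 1) units) in lycorine libraries L1 to L3 (red) and vehicle libraries V1 to V3 (blue). The immunoglobulin and plasma cell genes are high in L1 and V1, at 0.81 and 0.95, and lowest in L3, at -1.002, as the pan-leukocyte markers are, while the Kupffer cell markers lie below 0 in all lycorine libraries and above 0 in all vehicle libraries.

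B cell and plasma cell identity was checked against marker lists. Ms4a1, the surface antigen CD20 of B cells, lay between 0.04 and 0.14 TPM in lycorine and between 0.07 and 0.11 TPM in vehicle. Of the 20 B cell markers 9 were tested, 3 above 0 and 6 below, with a median log2 fold change of -0.41 and 0 passing. Ly6d, a surface protein listed for both B cells and plasmacytoid dendritic cells, had the smallest p among them, at 300.96, 71.18 and 105.90 TPM in lycorine and at 116.32, 22.78 and 12.45 TPM in vehicle, a log2 fold change of 1.99 (limma adjusted p = 0.832). Its level was far above that of Cd79b and Ms4a1 in each library. Bank1, a B cell adaptor, was at no more than 0.08 TPM in lycorine, against 0.19, 0.04 and 6.66 TPM in vehicle 1, 2 and 3.

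Of the 20 plasma cell markers 13 were tested, 7 above 0 and 6 below, with a median of 0.05 and 0 passing in limma. Several of them are also made by hepatocytes. Xbp1, the transcription factor of secretory cells, was at 44.20, 29.23 and 18.17 TPM in lycorine and at 26.48, 15.57 and 14.85 TPM in vehicle, and Sdc1, the proteoglycan CD138, at 44.60, 29.24 and 22.39 TPM in lycorine and at 28.49, 22.12 and 15.05 TPM in vehicle. Edem2, which sends misfolded proteins to degradation, was at 96.01, 73.77 and 79.54 TPM in lycorine and at 73.68, 51.03 and 24.73 TPM in vehicle, where the groups did not overlap (log2 fold change 0.85, limma adjusted p = 0.832). Edem2 was named for the smallest p of its list, and 10.6% of all rows tested did not overlap. Some plasma cell markers were near 0, while Jchain of the same lineage was higher, and Pou2af1 was higher in vehicle 3 alone. Tnfrsf17, the receptor BCMA of plasma cells, was above 0 in vehicle 2 alone, at 0.14 TPM, and Prdm1 and Irf4, which drive plasma cell fate and are also made by other leukocytes, were at most 0.17 TPM in every library. Pou2af1, a coactivator of immunoglobulin genes, was at 0.36, 0.07 and 0.29 TPM in lycorine, against 0.22, 0.15 and 10.50 TPM in vehicle, while Igkc was low in vehicle 3.

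Genes around the B cell receptor and the antibody were read from further lists, and 0 members of any list passed in limma. Of 20 genes of B cell receptor signalling 18 were tested, 5 above 0 and 13 below, with a median of -0.25. The 3 of smallest p went in different directions, with log2 fold changes of 0.76 for Cd81, -1.14 for Btk and 0.45 for Blnk. The kinase Btk was at 1.25, 0.19 and 0 TPM in lycorine and at 3.18, 0.18 and 4.87 TPM in vehicle. Of 20 genes of B cell survival and homing 6 were tested, 4 above 0 and 2 below, with a median of 0.03. Among them Ccl19, a chemokine that attracts lymphocytes, was at 1.97, 2.41 and 2.66 TPM in lycorine and at 5.34, 3.79 and 12.93 TPM in vehicle. These libraries did not overlap (log2 fold change -1.17, limma adjusted p = 0.832). Ccl19 was named for the smallest p of its list, and 10.6% of all rows tested did not overlap. Of 10 genes of class switching and germinal centres 5 were tested, 1 above 0 and 4 below, with a median of -0.08. Of 15 endoplasmic reticulum chaperones 15 were above 0 with a median of 0.25, close to the median of all rows.

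Receptors of antibody were measured as the partners of the secreted chains. Of 12 listed 7 were tested, 1 above 0 and 6 below, with a median of -0.26. Fcgr4, an activating IgG receptor of myeloid cells, was at 3.12, 5.64 and 3.27 TPM in lycorine and at 6.08, 18.28 and 12.42 TPM in vehicle, and the libraries did not overlap (log2 fold change -1.32, limma adjusted p = 0.832). Fcgrt, the neonatal Fc receptor that recycles IgG and albumin, was at 125.79, 103.61 and 89.86 TPM in lycorine and at 74.23, 67.94 and 76.34 TPM in vehicle, again without overlap (log2 fold change 0.53, limma adjusted p = 0.832). Fcgr4 and Fcgrt were named for a small p within their list, and 10.6% of all rows tested did not overlap. Pigr, the carrier of polymeric IgA, named for its role after its values were seen, was at 326.21, 446.10 and 492.96 TPM in lycorine and at 376.92, 373.31 and 593.21 TPM in vehicle. Lycorine 1, with the most Igha, had the least Pigr, and the groups overlapped (log2 fold change -0.07, limma adjusted p = 0.959).

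Markers of other cells that a liver sample can hold were read in the same way. Plasmacytoid dendritic cells also express some B lineage genes, and of their 12 markers 9 were tested, 2 above 0 and 7 below, with Siglech between 0.64 and 1.81 TPM in lycorine and between 0.93 and 2.44 TPM in vehicle. Of 8 tested T cell markers 1 was above 0 and 7 below, with a median of -0.53. Of 12 pan-leukocyte markers 3 were above 0 and 9 below, of 5 tested erythrocyte markers 2 were above and 3 below, and of 12 hepatocyte markers 10 were above and 2 below. Of 12 exocrine pancreas markers 5 were at 0 in every library and 2 were tested, both above 0. Protein-coding nuclear genes made up 69.5% to 78.1% of TPM in lycorine and 51.5% to 71.5% in vehicle, with the lowest value in vehicle 3, and immunoglobulin genes 0.0104% to 0.0817% in lycorine and 0.018% to 0.079% in vehicle. Without both lycorine 3 and vehicle 3, 0 members passed, and the estimates of Igkc, Igha and Jchain were 0.03, 0.76 and 0.75. Without both lycorine 1 and vehicle 1, an alternative added after the data were seen, they were -0.07, 0.10 and -0.28, with 0 members passing.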

How the data were processed

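Liver RNA was sequenced in 3 lycorine and 3 vehicle libraries, grouped by their titles. The authors deposited 1 table with values that sum to 1000000 in each column, so the deposited values are TPM although the table is named for FPKM, and the test planned for FPKM was run on TPM. Libraries were prepared with an NEBNext Ultra RNA kit, per the labels' protocols. The submitters' processing notes list GRCm38 and mm10. For the aligner, the quantifier and the gene models, nothing is given in the sources used here. Vehicle columns carry genotype and number only. Names and coordinates came from GENCODE M21 (GRCm38), which matched 52135 of 58601 rows.

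All rows whose mean reached 1 TPM were transformed to log2(TPM + 1) and fitted together in limma (version 3.58.1, R version 4.3.3), letting the variance follow the mean. The p-values were two-sided and adjusted over all rows by Benjamini and Hochberg's method at a threshold of 0.05. The fit was also run on simulated data whose genes varied independently, which does not cover variation shared by the genes of a library. Fold changes on this scale understate the change of weakly expressed genes. Isotype shares were compared by exact permutation over 20 assignments. Named by rule were the members, the other constant genes, up to 3 genes of smallest p per list and the 5 highest variable genes. The rule also took the 8 genes most like the members. Of all these, the ones that bear on a result are described. Ms4a1, Siglech, Tnfrsf17, Prdm1, Irf4, Pou2af1 and Pigr come from the lists but were named outside this rule. The members, the 16 gene lists and the tests were chosen with earlier results of these data known. Of 221 list entries 1 was not matched. Alternatives covered the pseudocount, filter, scaling, variance model, library weights, a replicate block and leaving out libraries.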

Additional observations from a re-analysis of the deposited data

How the results depend on the processing

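No member passed under any of the 18 alternatives, and 0 rows of the table passed in 14 of them. The exceptions were a pseudocount of 0.1 and array quality weights, with 1 row each, and leaving out single libraries gave 0 to 2 rows (1 without lycorine 2, 2 without vehicle 2). Ighg2b kept its sign in 18 of 18 alternatives, but the changes of filter, the fit without a variance trend and the replicate block left its estimate at -0.71 by construction. The other 6 tested members each changed sign in some, and the cause was not tested. Over single libraries left out they ranged from -0.53 to 0.59 for Ighm, -0.40 to 1.06 for Igha, -0.80 to 0.59 for Igkc, -0.72 to 0.47 for Iglc2, -0.46 to 0.60 for Jchain and -0.10 to 0.28 for Cd79b. Ighm, Igha, Igkc and Jchain were lowest without lycorine 1, Iglc2 and Cd79b without vehicle 3. Ighm, Igkc, Iglc2 and Cd79b were highest without vehicle 1, Igha and Jchain without lycorine 3. Median-of-ratios scaling gave -0.24 for Ighm, -0.0089 for Igha and -0.21 for Jchain, and quantile normalization -0.12 for Ighm and -0.0655 for Jchain. Rescaling to protein-coding nuclear and immunoglobulin genes gave -0.23 for Ighm, -0.20 for Jchain and -0.0596 for Cd79b. A pseudocount of 0.1 gave -0.0015 for Ighm and 0.54 for Iglc2, a pseudocount of 0.5 gave 0.0518 for Iglc2, and array quality weights gave -0.0269 for Ighm and 0.38 for Iglc2. Without both lycorine 3 and vehicle 3 Igkc had 0.0343 and the IgM share differed by -0.22 points. Without both lycorine 1 and vehicle 1, added after the data were seen, Iglc2 had 0.56 and Jchain -0.28. Cd79a had a value only without the filter, and Mzb1 only there and after the rescaling. The IgA and IgG differences kept their sign in 10 of 10 alternatives each, with IgA at 12.5 to 19.9 points over single libraries left out. Leaving out libraries could not reverse these signs, because the groups did not overlap, and the replicate block leaves the difference of means unchanged. Only restricting the sum to heavy chain genes of a mean of at least 1 TPM could have reversed them, and there the IgA groups overlapped. The labels do not say whether the replicate numbers pair the libraries, and the main fit used groups only. The correlations of same-numbered deviations were 0.31, 0.05 and 0.29, and those of different numbers lay between -0.34 and 0.21. By these values 5 of 6 libraries correlated best with their own number, so a shared replicate effect was not excluded. With a replicate block 0 rows passed, and 1033 had an unadjusted limma p under 0.05 in place of 476. The IgA difference was then 15.9 points (exact sign-flip permutation p = 0.25, the smallest that this test allows with 3 libraries per group). Unknown depth limits genes near 1 TPM most.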
